A study of Mus musculus with 12 samples.

Results

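Cholinergic forebrain neurons are described here from single-nucleus RNA-seq of the left hippocampus of 3xTg-AD mice and wild-type (WT) littermates. They were found as 396 nuclei among 184957 retained nuclei, where a retained nucleus had between 500 and 10000 detected genes. Members were chosen by their own raw counts of unique molecular identifiers (UMIs, each standing for 1 captured transcript): at least 1 UMI of Chat, the enzyme that makes acetylcholine, and at least 1 of Slc5a7, the transporter that takes up choline. They also had no UMI of the glutamate transporters Slc17a7 and Slc17a6, none of Tac2 and Gpr151, which mark cholinergic neurons of the medial habenula, and fewer than 2 of the oligodendrocyte gene Mobp. Of the 843 nuclei with both Chat and Slc5a7, 392 were removed for a glutamate transporter UMI, 47 more for Tac2 or Gpr151, and 8 more for Mobp. Because the rule selected on these 7 genes, their levels against other nuclei are given only as a description.

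The study took female mice at 6 and 12 months, with 3 3xTg-AD and 3 WT animals at each age and 1 library per animal, 12 libraries in all. 3xTg-AD mice carry human APPSwe and tauP301L transgenes together with a knock-in allele, on a mixed B6 and 129 background. Both transgenes are driven by a Thy1 cassette that is active mainly in postnatal neurons. WT littermates carry none of these alleles, and no animal received a treatment. Nuclei were sorted by flow cytometry before droplet capture, so the share of a type among the nuclei is the share after dissection and sorting. With counts of nuclei, fewer cells of a type and fewer recovered nuclei of it cannot be told apart.

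Basal forebrain cholinergic neurons send axons to the hippocampus and cortex, while their cell bodies lie outside it, in the medial septum and neighbouring nuclei. They depend on nerve growth factor, for which Ngfr (p75) is a receptor, and they are among the neurons lost in Alzheimer's disease. Other cholinergic forebrain neurons are the large interneurons of the striatum, and both kinds arise from ventral forebrain progenitors that express the LIM homeobox factor Lhx8. Acetylcholine is made by Chat, loaded into vesicles by Slc18a3 (VAChT), split by Ache, and its choline is recovered by Slc5a7.

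Since the members are defined by Chat and Slc5a7, the 250 bases upstream of the RefSeq start of these genes and of Slc18a3 (GRCm38.p6, each on the minus strand) are printed to show the sequence in front of the defining transcripts. They were searched for TAAT and its reverse complement ATTA, the core that homeodomain factors such as Lhx8 and Isl1 bind, and a match is in capitals.
Chat, chr14:32465910-32466159: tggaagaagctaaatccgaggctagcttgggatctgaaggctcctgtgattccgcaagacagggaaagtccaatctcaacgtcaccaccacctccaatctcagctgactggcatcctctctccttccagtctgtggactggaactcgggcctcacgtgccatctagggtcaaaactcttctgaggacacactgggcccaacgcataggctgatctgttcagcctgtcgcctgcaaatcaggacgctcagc
Slc18a3, chr14:32464851-32465100: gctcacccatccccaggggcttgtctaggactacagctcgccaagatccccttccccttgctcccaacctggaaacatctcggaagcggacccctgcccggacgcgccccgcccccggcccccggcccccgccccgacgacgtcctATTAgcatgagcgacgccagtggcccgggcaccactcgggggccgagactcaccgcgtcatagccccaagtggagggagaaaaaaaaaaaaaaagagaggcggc
Slc5a7, chr17:54299035-54299284: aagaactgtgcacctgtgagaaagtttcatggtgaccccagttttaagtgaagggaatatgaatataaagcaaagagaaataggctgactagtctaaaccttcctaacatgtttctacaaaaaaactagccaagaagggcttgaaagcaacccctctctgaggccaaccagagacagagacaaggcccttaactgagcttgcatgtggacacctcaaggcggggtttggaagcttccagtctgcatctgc
The Slc18a3 window held 1 match, 104 bases before the start, and the Chat and Slc5a7 windows held 0. Of 32851 windows of the same length in the RefSeq table, 54.9% held at least 1 match, so its presence in 1 of 3 windows is a description of these letters only. The Slc18a3 gene (chr14:32462438-32464850) lies inside Chat (chr14:32408203-32465989) on the same strand and overlaps no annotated Chat exon. Reads from unspliced Chat and from Slc18a3 may therefore not be separable there, and the Slc18a3 counts are uncertain.

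The deposited libraries held 79177051 to 128323908 UMIs each, with library medians of 4345 to 6698.5 UMIs per retained nucleus and 7502 to 13240 per member. Summed over the members of 1 library, the counts behind an expression value were 112906 UMIs in WT replicate 4 at 12 months, the lowest, and 753152 in 3xTg-AD replicate 2 at 12 months, the highest. A doublet caller marked 14 of the 396 members. Any pair of libraries shared 29 to 107 cell barcodes, no barcode was that of a member in more than 1 library, and 13 member barcodes also occurred in another library. The labelled tissue also contained nuclei with striatal markers: medium spiny nuclei (Ppp1r1b, Rgs9 and Gad1 or Gad2, without glutamate transporters) made up 0.0111% to 7.87% of a library. Those shares did not overlap between genotypes at 12 months, with 0.0111%, 0.348% and 0.0793% in WT replicates 4, 8 and 12 and 5.90%, 4.72% and 0.848% in 3xTg-AD replicates 2, 6 and 10. Their part in the results below was not tested except where a value is given.

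A member held 1 to 39 UMIs of Chat, with a median of 5, and 1 to 31 of Slc5a7, also with a median of 5. As a measure of free RNA, among 18959 oligodendrocytes 0.058% had a Chat UMI, 0.232% a Slc5a7 UMI and 0 had both, but at a median of 2206 UMIs these nuclei were shallower than the members. Among 4512 medium spiny nuclei, at a median of 8286.5 UMIs over libraries, the shares were 1.46% and 0.399%, and 6 nuclei (0.133%) had both. Among 8277 glutamatergic nuclei (10660 UMIs), 1.33% had both, but cholinergic nuclei that carry Slc17a7 may be among these. The count was 0 of 677 in 3xTg-AD replicate 9, with 0 habenular cholinergic nuclei. It was 21 of 753 in 3xTg-AD replicate 10, with 52 habenular cholinergic nuclei. The source of these counts was not tested. The label was checked with Lhx8, which the rule did not use, at the edges of the rule. Lhx8 was detected in 9.09% of the 22 members with just 1 UMI of each gene (median 5509.5 UMIs), in 39.1% of 69 with 1 UMI of one of them (7685 UMIs), and in 83.0% of 305 with at least 2 of both (12302 UMIs). Depth rose along with the Lhx8 share over these classes. Just outside the rule, Lhx8 was detected in 3.29% of 425 nuclei with Chat alone and in 6.38% of 862 with Slc5a7 alone. It was detected in 18.5% of 81 nuclei with both genes and 1 glutamate transporter UMI, in 4.92% of 122 with 2 or more, and in 1.30% of the 230 habenular cholinergic nuclei. Of the habenular nuclei, 98.7% carried Nwd2.

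Further markers of cholinergic forebrain neurons were detected in 19.9% to 71.2% of members. Lhx8 was detected in 71.2% of members (95% exact interval 66.5% to 75.6%) and Isl1, a LIM factor of cholinergic and striatal neurons, in 56.1% (51.0% to 61.0%). Ngfr was detected in 25.5% (21.3% to 30.1%) and Slc18a3 in 19.9% (16.1% to 24.2%), the latter in 11 of 12 libraries. These intervals cover counting error only. By library, Lhx8 was detected in 30.8% of the 13 members of WT replicate 4 at 12 months and in 58.8% to 87.0% of the members of the other 11 libraries, so that library stood apart.

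Among the other genes of acetylcholine handling, choline kinase Chka was detected in 83.6% of members, ATP citrate lyase Acly, which supplies acetyl-CoA, in 80.1%, and the choline transporter-like protein Slc44a1 in 69.7%. Ache was detected in 58.3%, Bche in 1.77%, and Colq, the collagen tail of muscle acetylcholinesterase, in 0 of 396 nuclei, which allows a share of up to 0.758% for nuclei with a UMI. Prima1, the membrane anchor of acetylcholinesterase in brain, was detected in 80.8%.
In the lineage list, the zinc finger factors Zic1 and Zic4 were detected in 55.6% and 35.9% of members and the homeobox factors Nkx2-1, Lhx6 and Gbx1 in 25.3%, 11.1% and 8.84%. Of the other neurotrophin genes, the receptors Ntrk2 and Ntrk3 for other neurotrophins were detected in 90.2% and 91.9% and the sorting receptor Sort1 in 57.8%. Among the receptors for acetylcholine itself, the inhibitory autoreceptor Chrm2 was detected in 78.8%, Chrm3 in 15.9% and Chrm1 in 2.02%. The nicotinic subunits Chrna7 and Chrnb2 were detected in 30.8% and 10.1%. Transcripts for a second transmitter were also found: Gad2, an enzyme of GABA synthesis, in 64.1% (59.2% to 68.9%), Gad1 in 29.8%, the vesicular glutamate transporter Slc17a8 (VGLUT3) in 32.8% (28.2% to 37.7%) and the vesicular GABA transporter Slc32a1 in 8.59%. Among receptors for other transmitters, the substance P receptor Tacr1 was detected in 75.5%, the delta and mu opioid receptors Oprd1 and Oprm1 in 47.7% and 43.9%, the tachykinin receptor Tacr3 in 35.4%, the dopamine receptor Drd2 in 25% and Drd5 in 2.78%. The mouse genes App and Mapt, whose human forms are the transgenes, were detected in 97.5% and 93.7%, and the files used here do not give separate values for the human transcripts.

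To compare classes at 1 depth, nuclei with enough UMIs were thinned to 3000 UMIs. These were 395 members, 228 habenular cholinergic nuclei and a random 3600 of the 39773 Gad-positive nuclei, the same number from each library (at least 2 UMIs of Gad1 and Gad2 together, no Chat, Slc5a7 or glutamate transporter). After thinning, Lhx8 was detected in 41.8% of members, 0.439% of habenular and 1.86% of Gad-positive nuclei. The corresponding shares were 9.87%, 0.439% and 0.111% for Ngfr. Slc17a8 was detected in 18.0%, 0% and 0.389%. Gad2 was detected in 30.4% of members against 4.39% of habenular nuclei, and in 69.7% of the Gad-positive nuclei that were chosen with it. Zic1 and Zic4 did not set the members apart in this way, with 24.8% and 10.9% in members and 59.6% and 42.1% in habenular nuclei. The Slc17a8 share of 0% among 228 habenular nuclei is that of nuclei with a UMI, not of nuclei expressing the gene.

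The genes that stood highest in members over Gad-positive nuclei were ranked by the median over libraries of the log2 ratio of CPM (a gene's UMIs in a summed library, scaled to the same total for all libraries), with 10 CPM added, among genes found in at least 25% of members. Prima1 led at 4.75, followed by Lhx8 at 3.42 and by Tacr1 and Acly at 3.41. The orphan receptor genes Qrfprl (3.23) and Insrr (3.20) were also among the first 20, with the unnamed transcript Gm11906 (3.15), the endopeptidase-like gene Ecel1 (2.93) and Sfta3-ps (2.82). Further genes of the first 20 were Elavl2, Slc7a14, Kctd6, Slc10a4 (a vesicular transporter of cholinergic and monoaminergic neurons), Sphkap, Slc17a8, Tmtc2, Oprd1, Sv2c and Tacr3, between 2.78 and 2.22. Each of the 20 was higher in members in 12 of 12 libraries, which their ranking by the median over the same libraries all but fixed beforehand. Of the 5699 genes considered, 33 were higher by at least 2 log2 units. Genes were considered only if found in enough members, so the list is a description. Prima1 and Acly of acetylcholine handling and Lhx8 stood among its first 5 genes.

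Detection of one marker was compared between members with and without another. Ecel1 was detected in 94.0% of members with Lhx8 and in 34.2% of those without, where the members with Lhx8 had a median of 12232 UMIs and those without 7916. Ngfr and Slc17a8 were found together in 23 members, with Slc17a8 in 22.8% of the members with Ngfr and in 36.3% of those without. Members with Slc17a8 carried Drd2 in 40.0% and Gad2 in 76.9%, against 17.7% and 57.9% of members without Slc17a8. These co-detections are descriptions over nuclei, which share libraries and depth.

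The members were grouped into 7 clusters by their own expression, which are described by their leading genes and not tested, since the genes that define a cluster cannot test it. The cluster led by Fn1 and Slc17a8 (cluster 1, 84 nuclei) also carried Alk, Ptchd4, Kcnt2, Tshz3 and Cacna2d3. It had Slc17a8 in 82.1% of nuclei against 19.6% of the other members, Lhx8 in 91.7% and Ngfr in 0 of 84 nuclei. A count of 0 allows a share of up to 3.57% for nuclei with a UMI, and sets no limit on nuclei expressing the gene. The cluster led by Gm11906 and Shisa9 (cluster 2, 78 nuclei) and the one led by Lgr5 and Reln (cluster 3, 74 nuclei) carried Ngfr in 56.4% and 54.1%. The Lgr5 cluster also had Nfib, Kcnmb2 and Pknox2 among its leading genes and the nitric oxide synthase Nos1 in 60.8%. The cluster led by Csgalnact1 (cluster 5, 41 nuclei) carried Slc17a8 in 51.2%, Nos1 in 53.7%, Lhx8 in 85.4% and Ngfr in 0 nuclei. Ngfr and Slc17a8 were thus highest in different clusters, Ngfr in the Gm11906 and Lgr5 clusters and Slc17a8 in the Fn1 and Csgalnact1 clusters.

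The remaining clusters fitted the label less well. The cluster led by Meis2 and A830082K12Rik (cluster 4, 65 nuclei) held Lhx8 in 55.4% and 8 of the 14 members marked as doublets. The cluster led by Tafa1, Dach2 and Gda (cluster 6, 28 nuclei) had Lhx8 in 3.57% and Gad2 in 92.9%. The cluster led by Scube1 and Robo3 (cluster 7, 26 nuclei) had Nwd2 in 100% of nuclei, Chrna3 in 73.1%, Lrrc55 in 69.2% and Pou4f1 in 42.3%, all genes of the habenula list, with Lhx8 in 0 of 26, which allows up to 11.5% for nuclei with a UMI. Its nuclei had a median of 5689 UMIs, the lowest of the 7 clusters. The markers of both clusters went against the label, so they are called here by their leading genes only, and 54 of the 396 members (13.6%) were in them. Over 5 other clustering settings, both clusters kept 96.2% to 100% of their nuclei (as the share of nuclei in either version that are in both), the Slc17a8 cluster 63.1% to 100% and the Lgr5 cluster 48.9% to 71.9%. The Gm11906 cluster kept 76.9% to 100%, the Meis2 cluster 56.5% to 75.4% and the Csgalnact1 cluster 53.7% to 100%. In the second clustering described below, the Meis2 and Csgalnact1 clusters had the same match, at 42.4% and 37.6% by the same measure.

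**Figure D1:**
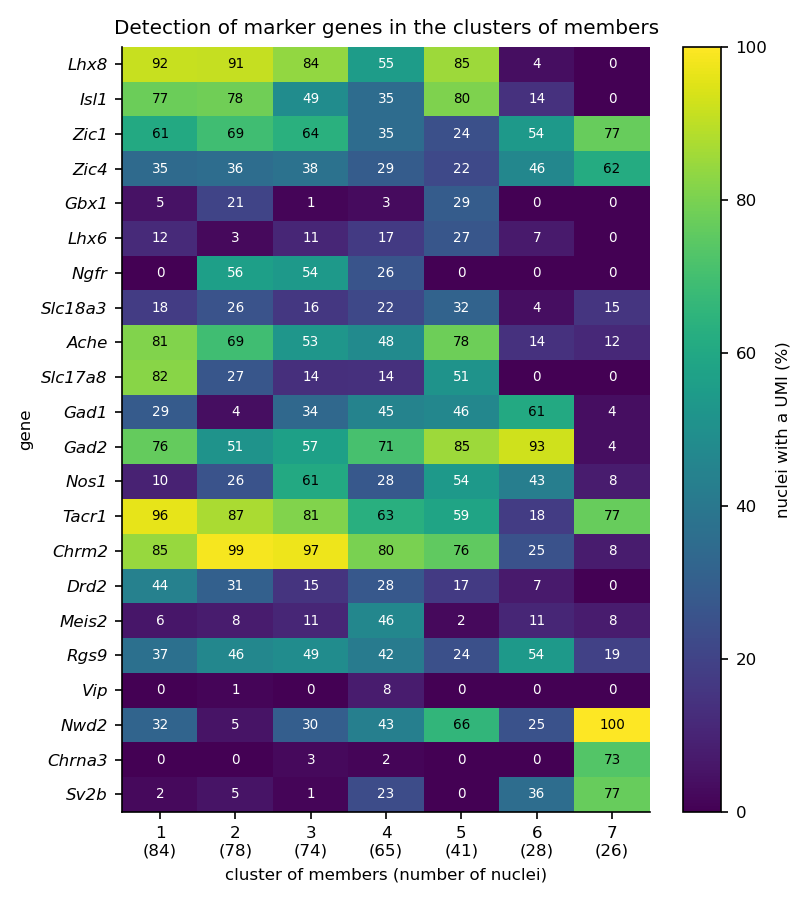
Percent of nuclei with at least 1 UMI (colour and printed number) of each marker gene (rows) in each of the 7 clusters of the 396 members (columns, with the number of nuclei). Lhx8 is found in 91.7% of cluster 1, led by Fn1 and Slc17a8, and in 0 nuclei of cluster 7, led by Scube1, and Ngfr is highest in clusters 2 and 3.

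The first question of the design was whether the share of these neurons differed between the genotypes. At 6 months, members made up 0.214%, 0.244% and 0.304% of retained nuclei in WT replicates 3, 7 and 11 and 0.233%, 0.215% and 0.129% in 3xTg-AD replicates 1, 5 and 9. The means were 0.254% ± 0.0457 and 0.192% ± 0.0557 (SD, n = 3 each), the groups overlapped, and the difference of -0.0620 percentage points had p = 0.3 (exact permutation test, two-sided). At 12 months the shares were 0.0721%, 0.197% and 0.1498% in WT replicates 4, 8 and 12 and 0.365%, 0.318% and 0.162% in 3xTg-AD replicates 2, 6 and 10. The means were 0.139% ± 0.0628 and 0.282% ± 0.107 (SD, n = 3 each), with 3xTg-AD replicate 10 inside the WT range, and the difference of 0.142 points had p = 0.2 by the exact permutation test. With 3 animals against 3, p cannot go below 0.1. Over both ages, the difference within ages was 0.0401 points (p = 0.44, exact over 400 permutations, 6 libraries each), and 12 against 6 months differed by -0.0126 points (p = 0.795, exact). Adjusted over the 4 tests, the p-values were 0.587 for the genotype tests and 0.795 for age, so no difference in share passed the test. At both ages the difference between the genotype means was larger than either SD, while the libraries of both genotypes overlapped. The lowest share was that of WT replicate 4 at 12 months, where 13 members were found, 6 of them in the Scube1 cluster.

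The share of members moved with the share of medium spiny nuclei of the same library. Over the 12 libraries, Pearson's r was 0.764 (permutation p = 0.00342) and Spearman's rho 0.727 (permutation p = 0.00929), and r was 0.626 after leaving out the 2 libraries farthest from the median medium spiny share. Both shares have the same denominator, the retained nuclei. The share of members that were in the Slc17a8 cluster was related to it in the same way, with r = 0.791 (permutation p = 0.00254) and rho = 0.858 (permutation p = 0.00073), and r = 0.887 without those 2 libraries. Adjusted over these 2 relations, the Pearson permutation p-values were 0.00342 and 0.00342 and the Spearman ones 0.00929 and 0.00146. Both relations were taken over the libraries of all groups together, not within groups. The medium spiny shares did not overlap between genotypes at 12 months, and the part of group differences in these relations was not tested. By the labels every library is left hippocampus, and the files used here hold no record of the dissection.

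**Figure D2:**
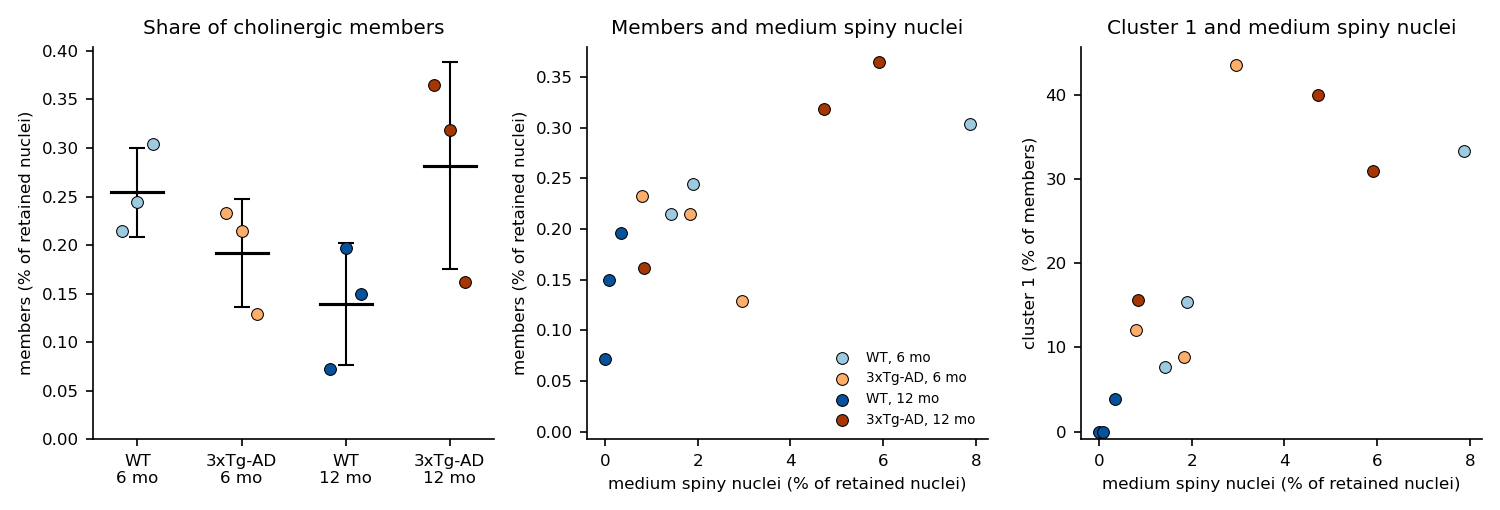
Left, members as a percent of retained nuclei for each library (points) in the 4 groups of genotype and age, with the mean (line) and SD (bars) of 3 libraries. Middle and right, the share of members and the percent of members in cluster 1, led by Fn1 and Slc17a8, against the percent of medium spiny nuclei of the same library: the share of members is lowest in WT replicate 4 at 12 months (0.0721%), and cluster 1 is at 0% in WT replicates 4 and 12.

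Because genes of that cluster also differed between genotypes, its size was taken from a second clustering without 1024 genes, those with an unadjusted p under 0.05 for genotype at 6 or 12 months or for the interaction. The matching cluster had 93 nuclei, of which 83 were in the first version. It held 0, 1 and 0 members in WT replicates 4, 8 and 12 at 12 months and 18, 20 and 5 in 3xTg-AD replicates 2, 6 and 10. At 6 months it held 2, 7 and 19 in WT replicates 3, 7 and 11 and 5, 5 and 11 in 3xTg-AD replicates 1, 5 and 9. The cluster was thus present in both genotypes at 6 months and nearly missing from the WT libraries at 12 months, which are also those with the fewest medium spiny nuclei.

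**Figure D3:**
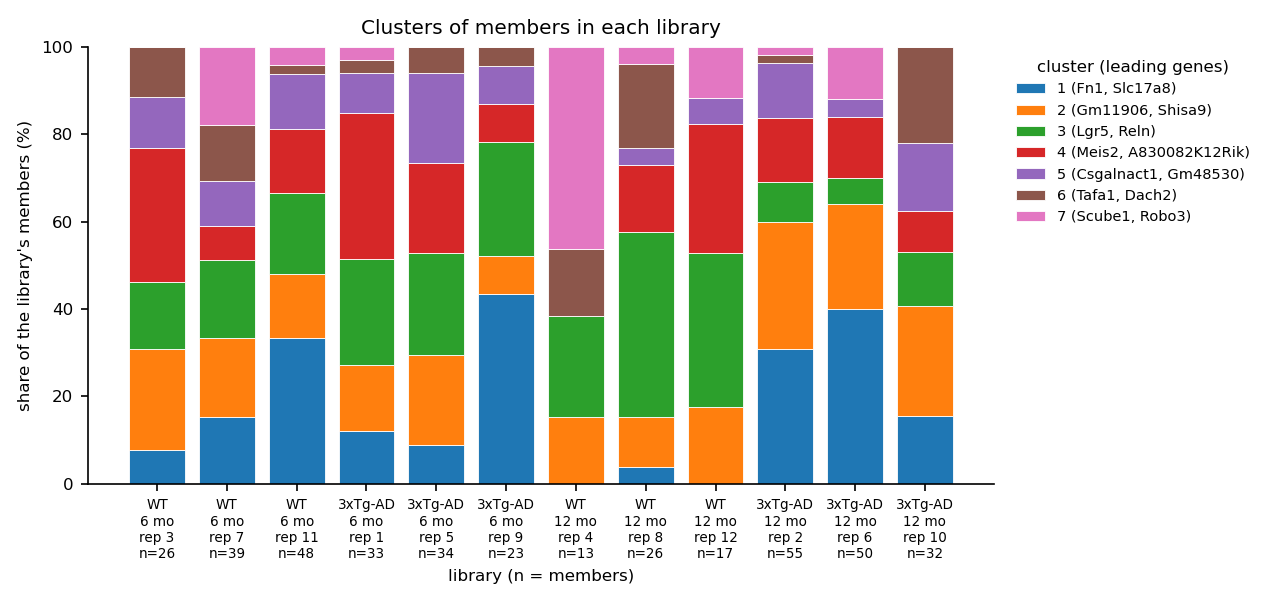
Share of each library's members (vertical axis, %) in each of the 7 clusters of the first clustering (colours), for the 12 libraries (bars, with the number of members below). In that version cluster 1, led by Fn1 and Slc17a8, holds 0%, 3.85% and 0% of the members of the 12-month WT libraries and 30.9%, 40.0% and 15.6% of those of the 12-month 3xTg-AD libraries.

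Expression within the members was then compared between genotypes at each age, as the study did for its own cell types, on UMIs summed per library. Calls required that edgeR's quasi-likelihood test, with Benjamini-Hochberg adjustment over all genes tested, gave an adjusted p below 0.05, and that the size of the log2 fold change was above 0.2. At 6 months, 2 of 6111 genes were called (0.0327%), both lower in 3xTg-AD, and 365 had an unadjusted p under 0.05. DESeq2 called 2. The zinc finger gene Zfp40 stood at 164, 141 and 125 CPM in WT replicates 3, 7 and 11 and at 38.3, 47.5 and 34.9 CPM in 3xTg-AD replicates 1, 5 and 9. The groups did not overlap, with a log2 fold change of -1.78 ± 0.23 (SE) and an adjusted p of 0.00865 by edgeR. The unplaced gene AC149090.1 fell from 550, 770 and 915 CPM to 260, 155 and 114 CPM (-2.05 ± 0.27, adjusted p = 0.00865). It was also lower in Gad-positive nuclei of the same libraries (-2.30, adjusted p = 0.00251), and so was Zfp40 (-0.64, adjusted p = 0.0157). The next genes were not called (each adjusted p = 0.447): the potassium channel subunit Kcnab1 at 0.87, Snrpn at 0.90, the activin receptor Acvr2a at 0.86 and Oprm1 at -1.16. With 1 library left out the count was 0 without 3xTg-AD replicate 9, 1 without 3xTg-AD replicate 1, 5 without WT replicate 3 and 6 without WT replicate 11. Zfp40 was no longer called without 3xTg-AD replicates 1 or 9, nor AC149090.1 without 3xTg-AD replicates 5 or 9. Both genes kept their direction, which groups without overlap all but fixed beforehand.

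None of the listed cholinergic, neurotrophin or receptor genes was called at 6 months. Of acetylcholine handling genes 7 could be tested, with a median log2 fold change of -0.04 against -0.01 over all genes tested, and of the neurotrophin list 6, with a median of 0.35. Chat, which the rule used, stood at 383, 398 and 520 CPM in WT and at 452, 433 and 476 CPM in 3xTg-AD. Lhx8 stood at 167, 196 and 221 CPM in WT and at 191, 200 and 225 CPM in 3xTg-AD. For both genes the groups overlapped. Of all the lists summed, only the markers of 3 other cell types did not overlap between the genotypes at 6 months. Full separation of 3 libraries from 3 has p = 0.1 at best (exact permutation), so some lists can separate by chance. The 12 medium spiny markers summed to 1752 to 1976 CPM in WT and 1981 to 2299 CPM in 3xTg-AD. Of the 7 tested genes 0 were called and 4 had an unadjusted p under 0.05, Pde10a and Meis2 higher and Rgs9 and Ptpn5 lower. Only 2 of the 7 had a positive log2 fold change, and their median was -0.07. The higher sum in 3xTg-AD was thus not shared by most of the tested genes. The 8 markers of other interneurons (among them Sst, Pvalb and Lamp5) summed to 74.0 to 109 CPM in WT and 111 to 237 CPM in 3xTg-AD, with the 1 tested gene not called. The 7 microglia markers summed to 55.5 to 65.5 CPM in WT and 20.4 to 47.6 CPM in 3xTg-AD, and none passed the filter on low counts. Their part in the calls at 6 months was not tested.

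At 12 months, 26 of 5766 genes were called (0.451%), 22 higher and 4 lower in 3xTg-AD, and 527 had an unadjusted p under 0.05. DESeq2 called 55. In each of the 26 the 3 WT and 3 3xTg-AD libraries did not overlap, which is a description of genes picked by their small p. Genes that were not called, such as Slc44a1 and Kcnn2, did not overlap either, and the share over all genes tested was not computed. With 1 library left out the count was 1 without WT replicate 12, 6 without 3xTg-AD replicate 2 and 14 without WT replicate 8. It was 18 without 3xTg-AD replicate 6, 29 without WT replicate 4 and 76 without 3xTg-AD replicate 10. Each of the 26 kept its direction in all 6 of these fits, which groups without overlap all but fixed beforehand. Of the 26, 19 were called without WT replicate 4, the library with the fewest members, and 1, Syndig1, without WT replicate 12. Cacna2d3, an auxiliary subunit of voltage-gated calcium channels, was at 106, 87.7 and 57.4 CPM in WT replicates 4, 8 and 12 and at 1275, 1483 and 484 CPM in 3xTg-AD replicates 2, 6 and 10. Its log2 fold change was 3.76 ± 0.43 (SE, adjusted p = 0.00562). At 6 months the same gene stood at 637, 670 and 1451 CPM in WT and at 485, 1068 and 1264 CPM in 3xTg-AD, so the WT libraries of 12 months were the low ones of all 12. The phosphodiesterase Pde3a was at 62.0, 64.3 and 57.4 CPM in WT and at 534, 512 and 248 CPM in 3xTg-AD (2.85 ± 0.34, adjusted p = 0.00562). At 6 months it stood at 175 to 349 CPM in WT and at 283 to 352 CPM in 3xTg-AD, again above the WT libraries of 12 months.

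The secreted factor Vwc2l was at 8.86, 32.2 and 43.0 CPM in WT and at 186, 247 and 158 CPM in 3xTg-AD (2.69 ± 0.33, adjusted p = 0.00605). The cAMP phosphodiesterase Pde4b rose by 1.83 ± 0.25 (adjusted p = 0.0107) and the transcription factor Tshz3 by 2.80 ± 0.39 (adjusted p = 0.0112). The sodium-activated potassium channel Kcnt2 was at 133, 252 and 244 CPM in WT and at 1026, 1171 and 537 CPM in 3xTg-AD (2.11 ± 0.31, adjusted p = 0.0143). Nos1ap, the adaptor of neuronal nitric oxide synthase, rose by 1.43, Sfmbt2 by 2.41 and the glycosyltransferase Galnt18 by 1.73. Megf10, a receptor for engulfment, had 2 UMIs in the WT libraries together and 127 in the 3xTg-AD libraries, a ratio of 25.4 (95% exact interval 6.89 to 212, counting error only) after division by the summed UMIs of the members.

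Slc17a8 was at 26.6, 17.5 and 4.78 CPM in WT, which are 3, 6 and 1 UMIs, and at 135, 196 and 58.8 CPM in 3xTg-AD (3.15 ± 0.57, adjusted p = 0.0338). Zfp40, lower in 3xTg-AD at 6 months, was higher at 12 months, with 44.3, 55.6 and 71.7 CPM in WT and 149, 213 and 134 CPM in 3xTg-AD (1.53 ± 0.28, adjusted p = 0.0331). Of the lower genes, the homeobox gene Pknox2 was at 88.6, 354 and 277 CPM in WT and at 49.1, 37.6 and 77.5 CPM in 3xTg-AD (-2.25 ± 0.37, adjusted p = 0.0187). Galnt14 fell by 2.0, the semaphorin Sema6a by 0.98 and the BK channel subunit Kcnmb2 by 1.44 on the log2 scale (adjusted p = 0.0275, 0.0454 and 0.0464). Slc17a8 lost its call in 4 of the 6 fits with 1 library left out, those without WT replicates 8 or 12 or 3xTg-AD replicates 2 or 6, with log2 fold changes of 2.74 to 3.48 over all 6. Pknox2 also lost its call in 4 of these 6 fits, Zfp40 and Galnt14 in 5, and Sema6a and Kcnmb2 in all 6, against 1 for Cacna2d3, Pde3a, Vwc2l and Megf10 and 2 or 3 for the other genes named by value above.

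**Figure D4:**
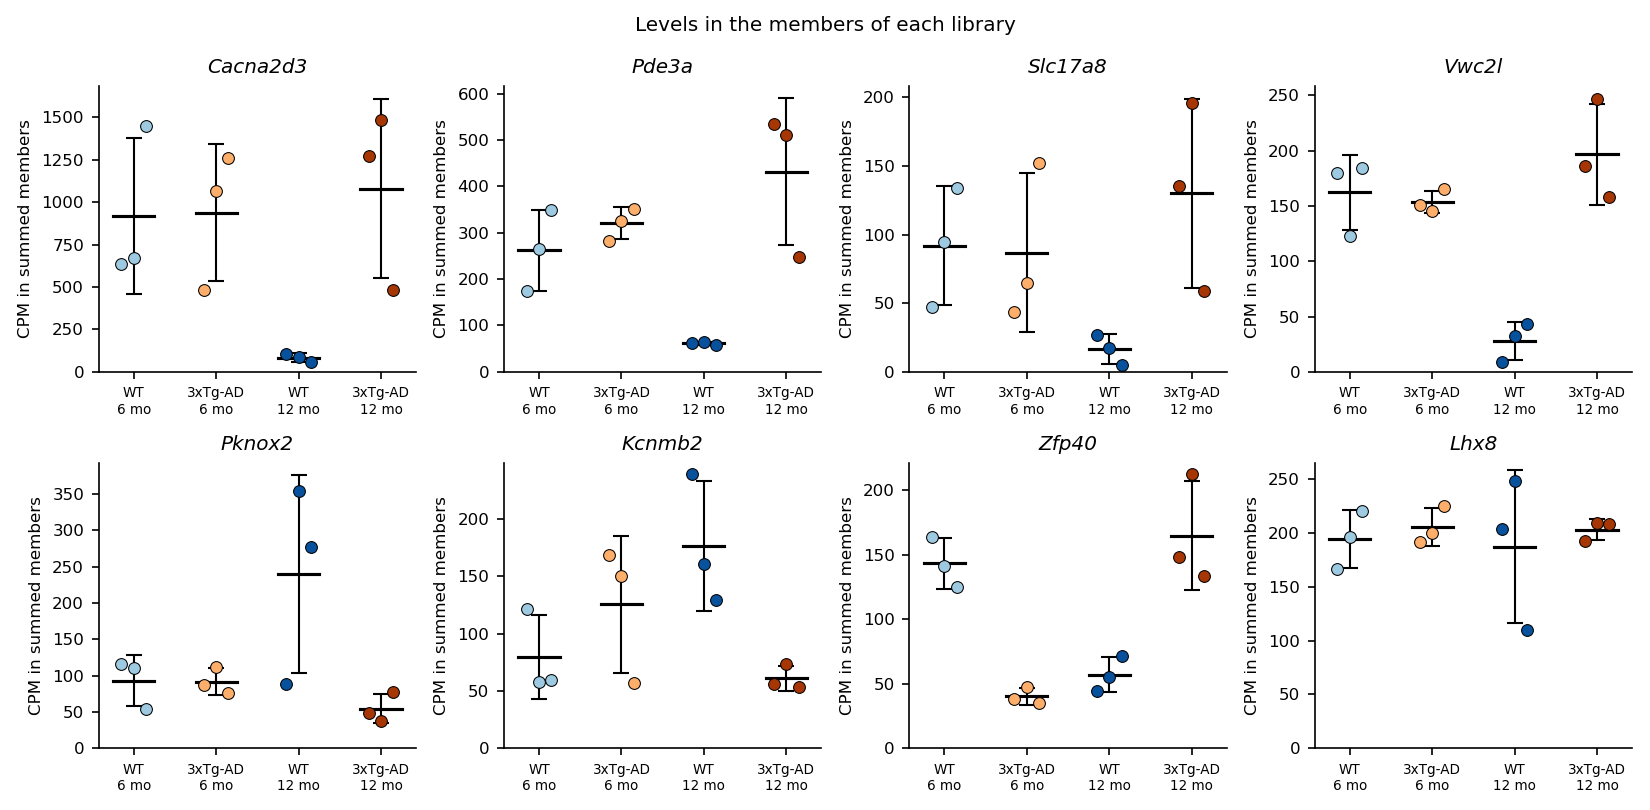
CPM of 8 genes (panels, vertical axis) in the members of each of the 12 libraries (points) by genotype and age, with the mean and SD of 3 libraries. The 12-month WT libraries are lowest for Cacna2d3 and Pde3a, and Zfp40 is lower in 3xTg-AD at 6 months and higher at 12 months.

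Chat and Slc5a7, which the rule used, were not among the 26. Chat was at 363, 509 and 368 CPM in WT and at 510, 572 and 470 CPM in 3xTg-AD at 12 months, and Slc5a7 at 523, 418 and 488 CPM and at 632, 587 and 545 CPM. The groups overlapped for Chat and did not overlap for Slc5a7. The rule required both genes in every member, which bounds these levels from below, so the lack of a call is no test of cholinergic identity. Lhx8 was at 204, 249 and 110 CPM in WT and at 193, 209 and 208 CPM in 3xTg-AD (log2 fold change 0.12, adjusted p = 0.948). Tacr1 (1.10, adjusted p = 0.415) and Drd2 (2.35, adjusted p = 0.0914) were not called either, nor were Nfib (-1.45, adjusted p = 0.0503), the GDNF receptor Gfra1 (-2.13, adjusted p = 0.0658) and Reln (-1.17, adjusted p = 0.118).

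By list, 0 of 6 tested genes of acetylcholine handling were called at 12 months (median log2 fold change 0.24 against -0.02 over all genes tested), 0 of 7 lineage factors (-0.51), 0 of 6 neurotrophin genes (0.11) and 0 of 10 genes of Alzheimer's disease models (0.03). Of the cotransmitter genes 1 of 4 was called, Slc17a8. The summed cotransmitter genes did not overlap between the groups of 12 months (354 to 383 CPM in WT, 389 to 422 CPM in 3xTg-AD). Nor did the summed lineage factors (617 to 1001 CPM in WT, 556 to 604 CPM in 3xTg-AD). As at 6 months, some lists can separate by chance. Summed markers of other cell types were compared between the groups. The summed level of the 10 habenula markers not used by the rule was 301 to 3162 CPM in the WT and 238 to 678 CPM in the 3xTg-AD libraries of 12 months, while none of its 2 tested genes was called (median -1.37). The 12 medium spiny markers summed to 1302 to 2468 CPM in WT and to 1774 to 2255 CPM in 3xTg-AD, with 0 of 7 tested genes called. The 7 microglia markers did not overlap at 12 months, at 33.5 to 44.3 CPM in WT and 59.7 to 97.9 CPM in 3xTg-AD, nor at 6 months, where WT was the higher group (given above). Of these markers C1qa was at 0 in every member, and 0 of 1 tested was called at 12 months. P2ry12, a receptor of microglia, stood at 8.77 to 9.56 CPM in WT, which are 1 to 3 UMIs a library, and at 21.4 to 43.3 CPM in 3xTg-AD at 12 months. The part of these markers in the genotype differences and in the interaction was not tested. The oligodendrocyte markers not used by the rule were at 23.9 to 110 CPM over the 12 libraries, and the motor neuron markers at 0 to 10.6 CPM, with 3 of 7 at 0 in every member.

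The genes called at 12 months were compared with the clusters. The comparison used the second clustering, made without any of the 26 genes, and levels in 6-month nuclei alone, a choice made after seeing the data. Of these nuclei 49 were in the match of the Fn1 and Slc17a8 cluster and 154 were others. The clustering itself was made on all members, so 12-month nuclei had a part in drawing the cluster. Of the 22 higher genes, 19 were at least 1 log2 unit higher in that match than in the other members (86.4%), against 1.82% of all genes tested, and of the 4 lower genes 3 were at least 1 unit lower there (75.0%), against 5.62% of all. These shares are a description, since nuclei are not replicates. The 84 nuclei of that cluster over all 12 libraries were left out in an alternative chosen after seeing the data. At 12 months this removed 17, 20 and 5 nuclei from 3xTg-AD replicates 2, 6 and 10 and 0, 1 and 0 from WT replicates 4, 8 and 12. Counts were thus lost almost only in 3xTg-AD, and the part of that loss in the number of calls was not tested. In this fit 2 genes were called: Cacna2d3 (2.80, adjusted p = 0.0358, edgeR) and Pde3a (2.45, adjusted p = 0.0416). Of the 26 genes 24 could still be tested, all but Slc17a8 and Megf10, and all 24 kept their direction. Among genes that lost the call, Galnt14 was about as far apart as with all members (-2.01). Smaller log2 fold changes than with all members were left for Sfmbt2 (2.06), Vwc2l (2.04), Pknox2 (-1.84), Pde4b (1.33), Tshz3 (1.66), Kcnt2 (1.14) and Nos1ap (0.83). In 1 fit of all 12 libraries, 37 genes were called at 12 months, of which 22 were among the 26. With the share of members in that cluster as a covariate in that fit, 5 genes were called, of which Cacna2d3, Pde3a and Vwc2l were among the 26. The covariate was also added after seeing the data. Without the Scube1 and Tafa1 clusters the count rose to 113, with all 26 among them. That fit had 5 libraries, since WT replicate 4 was left with fewer than 10 members.

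**Figure D5:**
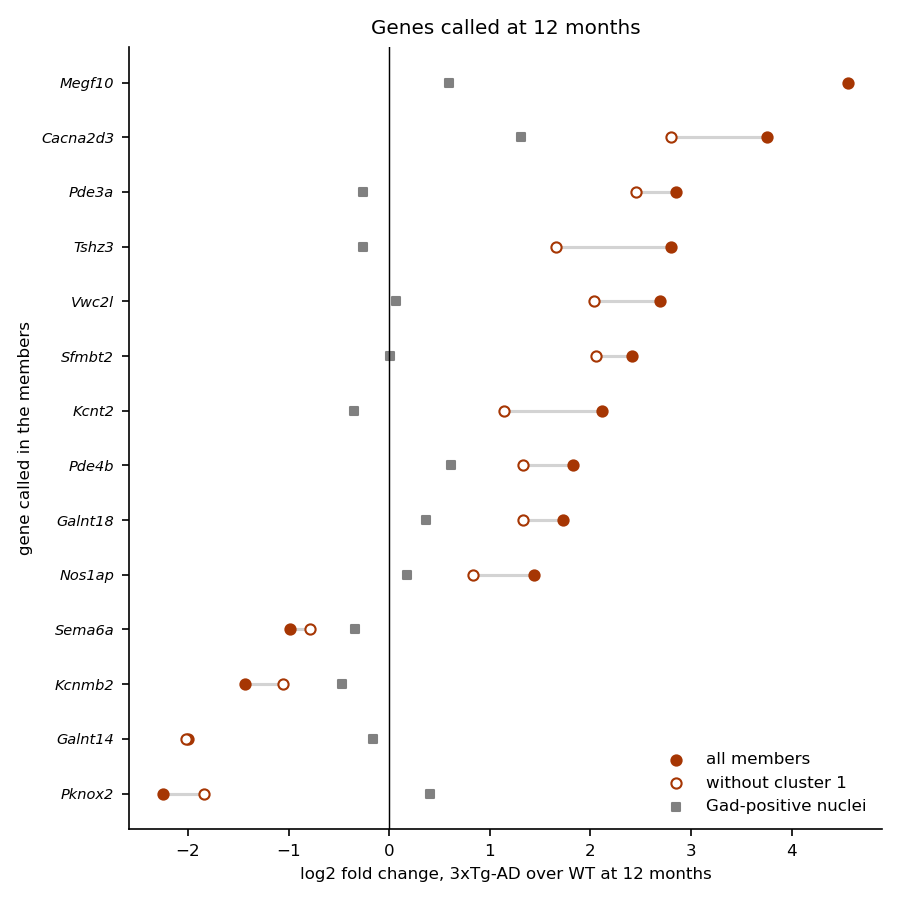
Log2 fold change of 3xTg-AD over WT at 12 months (horizontal axis) for the called genes with the smallest adjusted p in each direction (rows) in all members (filled circles), in members without cluster 1, led by Fn1 and Slc17a8 (open circles, where it could be fitted), and in Gad-positive nuclei of the same libraries (squares). Cacna2d3 is at 3.76 in all members, at 2.80 without cluster 1 and at 1.31 in Gad-positive nuclei, and the fitted value of Megf10 depends on the prior count since WT had 2 UMIs.

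Whether the genotype difference was unlike in the members and in Gad-positive nuclei of the same libraries was tested directly, by the difference of both log2 levels in each library. This two-sided test was added after seeing the data, and a call can also come from a change in the Gad-positive nuclei. At 12 months 45 of 5766 genes were called (0.78%), 23 higher and 22 lower, and 689 had an unadjusted p under 0.05. Foxp1, for example, was called lower (-1.36, adjusted p = 0.0462, edgeR), with a log2 fold change of -0.06 in the members and 1.39 in Gad-positive nuclei. The difference of the effects was 2.39 ± 0.26 for Cacna2d3 (adjusted p = 0.00669), 3.12 for Pde3a (adjusted p = 0.0214), 3.02 for Tshz3 (adjusted p = 0.0214) and -2.62 for Pknox2 (adjusted p = 0.0336). Of the 26 genes called in the members at 12 months, 17 passed this test. The 26 were picked by the genotype difference in the same member sums, so this count is a description. Those that did not included Slc17a8 (3.18, adjusted p = 0.105), Zfp40 (0.82, adjusted p = 0.211), Pde4b (1.19, adjusted p = 0.0765), Syndig1 (1.61, adjusted p = 0.0998), Sema6a (-0.60, adjusted p = 0.267) and Kcnmb2 (-0.98, adjusted p = 0.0846). At 6 months 0 of 6111 genes were called in this test (0%), and 279 had an unadjusted p under 0.05; DESeq2 was not run on it. In Gad-positive nuclei alone, edgeR called 990 of 18009 genes for genotype at 12 months, among them 3 of the 26. These were Cacna2d3 (1.31, adjusted p = 0.0337), Megf10 (0.59, adjusted p = 0.0345) and Syndig1 (0.71, adjusted p = 0.0249). The Gad-positive nuclei also differed in their makeup between libraries, as the medium spiny shares given above show.

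Whether the genotype difference changed with age was tested by the interaction in 1 fit over 12 libraries, which called 6 of 7021 genes (0.0855%), with 506 at an unadjusted p under 0.05 and 24 by DESeq2. Zfp40 changed most clearly, from lower to higher in 3xTg-AD (3.31 ± 0.36, adjusted p = 0.00023). The interaction was also called for Vwc2l (2.75, adjusted p = 0.00573), Cacna2d3 (3.71, adjusted p = 0.0240), Pde3a (2.56, adjusted p = 0.0240), AC149090.1 (3.00, adjusted p = 0.0330) and Nfib (-2.32, adjusted p = 0.0240). Nfib, a transcription factor and a leading gene of the Lgr5 cluster, stood at 123 to 190 CPM in WT and 244 to 388 CPM in 3xTg-AD at 6 months, and at 290 to 502 CPM and 88.2 to 183 CPM at 12 months. Reln (-2.43, adjusted p = 0.104) and Gfra1 (-3.24, adjusted p = 0.129) had the same sign and were not called. With 1 library left out the count was 2 without 3xTg-AD replicates 2 or 5 or WT replicate 11, 3 without 3xTg-AD replicates 1 or 6, 9 without 3xTg-AD replicate 9 and 15 without 3xTg-AD replicate 10. Zfp40 and Vwc2l were called in every such fit. Without the Fn1 and Slc17a8 cluster the interaction was called for 1 gene, Zfp40 (2.90). The other 5 kept their direction and were not called (adjusted p = 0.266 to 0.286, edgeR), at 2.57 for Vwc2l, 2.73 for Cacna2d3, 2.20 for Pde3a, 2.85 for AC149090.1 and -1.87 for Nfib. With the covariate for that cluster it was again called for Zfp40 alone (3.29).

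Over both ages together, 0 of 6587 genes were called for genotype (0%) by edgeR, with 557 at an unadjusted p under 0.05 and 13 called by DESeq2. The nearest were Csgalnact1 (1.47), the glycolytic enzyme Gpi1 (-0.68) and Sav1 (-1.39), each at an adjusted p of 0.0509, then Sap130 (0.81, adjusted p = 0.0839), Cfap54 (-2.02, adjusted p = 0.107) and Rnf152 (1.93, adjusted p = 0.119). Between 12 and 6 months, 0 of 6587 genes were called (0%) by edgeR, with 293 at an unadjusted p under 0.05 and 1 by DESeq2. The proteoglycan Gpc5 (-1.77, adjusted p = 0.0572) and the calcium release channel Itpr1 (-0.89, adjusted p = 0.163) were nearest on the lower side, followed by Fgfr1 (-1.01, adjusted p = 0.748). On the higher side Gm11906 (0.86), Mknk1 (1.06) and Eri3 (0.56) were at an adjusted p of 0.967. No listed gene was called in either test.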

How the data were processed

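Sorted nuclei of the left hippocampus came from 12 female mice. They were captured with 10x Genomics 3′ chemistry and sequenced, with 1 library per animal. Per the submitters' processing notes, the authors used Cell Ranger 6.1.1 and mm10 to make the deposited matrices, which hold whole UMI counts for each nucleus, before the study's own removal of ambient RNA and its filters. These counts were used as deposited, so ambient transcripts remain in every value, and a nuclear library also counts unspliced transcripts.

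Members were selected by the rule given above among nuclei with 500 to 10000 genes. The members and gene lists were chosen with earlier results of these data known. Genes were named from the lists, as up to 10 called genes in each direction by smallest adjusted p (or, with fewer than 3 called, the 3 with the smallest p, said not to be called), and as the 20 genes highest over Gad-positive nuclei. Genes outside this rule were named after their values were seen: Syndig1 and the leading genes of the clusters. Counts summed over the members of each library (at least 10 members) were tested with edgeR 4.0.16 (quasi-likelihood, TMM, filterByExpr, R 4.3.3), each age in its own fit as in the study, and with DESeq2 1.42.0 as an alternative. Shares were tested by exact permutation over libraries with scipy 1.17.1. Doublets were marked by Scrublet (expected share 8%) and kept. Clusters came from scanpy 1.11.5 (1500 genes found in at least 20 members, 20 components, 15 neighbours, Leiden resolution 0.3). The expression test was checked on simulated data. Gene positions are from GENCODE vM21 and promoter sequences from RefSeq (GRCm38.p6), where all 3 genes matched. Alternatives were another normalization, no filter on low counts, other limits on members, 1 fit for all libraries and leaving out each library. A few genes are not reported here.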

Additional observations from a re-analysis of the deposited data

Results flagged for a closer look

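The genotype difference changed between 6 and 12 months for 6 genes in the interaction test of edgeR over 12 libraries. The change in log2 fold change was 3.31 for Zfp40, 2.75 for Vwc2l, -2.32 for Nfib, 3.71 for Cacna2d3, 2.56 for Pde3a and 3.00 for AC149090.1. For Zfp40 the 3xTg-AD and WT libraries did not overlap at either age, in opposite directions, and in Gad-positive nuclei of the same libraries the interaction was 1.23 (adjusted p = 0.0717, edgeR). For AC149090.1 it was 2.68 in Gad-positive nuclei (adjusted p = 0.0679, edgeR) and for Cacna2d3 1.52 (adjusted p = 0.103, edgeR). For Vwc2l, Nfib and Pde3a the Gad-positive values were -0.10, -0.39 and -0.59. Cacna2d3, Vwc2l and Pde3a were higher in cluster 1, led by Fn1 and Slc17a8, than in the other members by 2.20, 2.01 and 1.65 log2 units, and Nfib was lower there (-3.24), a description, since the cluster was made with these genes among others. That cluster had 1 nucleus in the 3 WT libraries of 12 months, and its part in these interactions was not tested beyond the fits without it.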

How the results depend on the processing

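No paired analysis was possible because the labels number the animals 1 to 12 and the groups share no number. The share tests passed no threshold under any alternative. The share of cholinergic nuclei, 12 against 6 months, differed by -0.0126 points and reversed with nuclei thinned to 3000 UMIs (0.0155), with members carrying Nwd2, Chrnb4, Chrna3 or Pou4f1 left out (0.000949), as a percent of Gad-positive nuclei (0.0279), without WT replicate 4 (0.00423) and without 3xTg-AD replicate 10 (0.0174). Over the other alternatives the genotype differences ranged from 0.00582 to 0.107 within ages, -0.159 to -0.0332 at 6 months and 0.0563 to 0.373 at 12 months, the largest in size as a percent of Gad-positive nuclei, and the smallest within ages and at 12 months without the Fn1 and Slc17a8 cluster. With 1 library left out, the share differences ranged from 0.0192 to 0.0701 within ages, -0.0825 to -0.0303 at 6 months, 0.1005 to 0.202 at 12 months and -0.0335 to 0.0174 for age.

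Counts of called genes moved more. Without the filter on low counts they were 67 at 6 months, 205 at 12 months, 173 over both ages, 71 for age and 112 for the interaction. DESeq2 called 55, 13, 1 and 24 at 12 months, over both ages, for age and for the interaction. With at least 2 UMIs of Chat and Slc5a7 the counts were 86 at 12 months and 22 for the interaction. RLE normalization gave 3 over both ages, and at 6 months 1 gene was called in 1 fit of all libraries and 1 without members carrying the habenular genes. Of the alternatives chosen after seeing the data, leaving out the Scube1 and Tafa1 clusters gave 113, 2 and 32 (12 months, both ages, interaction) and members with Lhx8 72, 2 and 16. Leaving out the Fn1 and Slc17a8 cluster gave 1, 2 and 1 (6 months, 12 months, interaction), and its share as a covariate 1, 5, 1 and 1 (6 months, 12 months, age, interaction). At each age the covariate was used in 1 fit of all 12 libraries, which without it called 1 gene at 6 months and 37 at 12 months. WT replicate 4 fell under 10 members in the fits with at least 2 UMIs, with Lhx8 and without the Scube1 and Tafa1 clusters, so they had 5 libraries at 12 months and 11 otherwise, against 29 genes at 12 months and 8 for the interaction when that library alone was left out. The cause was not tested. With 1 library left out, counts ranged from 0 to 6 at 6 months, 1 to 76 at 12 months, 0 to 5 over both ages, 0 to 2 for age and 2 to 15 for the interaction. The interaction of Zfp40 was called in all of its alternatives, between 2.90 and 3.47. With 1 CPM added instead of 10, 58 genes stood at least 2 log2 units over Gad-positive nuclei, against 33. The fits without members carrying the habenular genes were not run at 12 months and for the interaction, since too few WT libraries kept 10 members. Depth limits these results: 13 to 55 nuclei stood behind each library's sum.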

Other observations

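Receptor, cotransmitter and lineage genes were detected at unlike shares in the clusters of members, which were not tested. Tacr1 was detected in 96.4% of cluster 1, led by Fn1 and Slc17a8, and in 17.9% of cluster 6, led by Tafa1. Chrm2 was detected in 98.7% and 97.3% of clusters 2 and 3, led by Gm11906 and Lgr5, and in 7.69% of cluster 7, led by Scube1. Gad1 was detected in 3.85% of cluster 2 and in 60.7% of cluster 6. Gbx1 was detected in 20.5% of cluster 2 and 29.3% of cluster 5, led by Csgalnact1. These shares are descriptions of clusters made from the same nuclei.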
